A study of Mus musculus with 6 samples.

Results

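The insulin-like growth factor system of the mouse kidney was read from RNA-seq profiles of 6 libraries, through 10 genes: the growth factor gene Igf1, the receptor genes Igf1r and Igf2r, and the binding protein genes Igfbp1 to Igfbp7. They were taken by gene symbol from a table of 51804 symbols, and the estimated counts of all transcripts of a symbol were summed. All 10 were found, each as a single Ensembl gene ID annotated as protein coding, and all 10 passed the filter on low counts.

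The 6 kidneys form 2 groups by genotype, as labelled: 3 Ccnb1f/f;Cdh16-Cre kidneys (knockout) and 3 Ccnb1f/f kidneys with no Cre named (control), so the floxed Ccnb1 allele is common to both. Cyclin B1, the product of Ccnb1, activates Cdk1 for mitosis. Cdh16-driven Cre acts in tubular epithelium, and vessels, stroma and immune cells of a knockout kidney are outside its reach. The question was whether a loss of cyclin B1 in the tubule would bear on fibrosis and ageing of the kidney. No label tells age, sex, strain background or whether each library is a different animal, and the p-values below therefore reflect variation among libraries that could be technical in part.

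Insulin-like growth factors are secreted hormones close to insulin. Igf1 is made in liver under growth hormone and also locally in many tissues, kidney included, and signals through the receptor tyrosine kinase encoded by Igf1r. Igf2r is not a signalling kinase: it carries mannose 6-phosphate tagged enzymes to lysosomes and removes the second ligand, encoded by Igf2, from the cell surface. The binding proteins hold the hormones in blood and matrix, lengthen their life and decide how much reaches the receptor, and several also act without them. In kidney, IGFBP7 in urine is used as a marker of acute tubular stress and cell cycle arrest.

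The binding proteins are recognised by clusters of cysteines that shape the hormone pocket. The coding sequence of the transcript with the most counts was read for each gene (GENCODE M21, GRCm38). The 7 binding protein genes carry 16 (Igfbp6) to 20 (Igfbp4) cysteine codons in 238 to 305 codons. A search for a glycine, a cysteine, any residue, 2 cysteines, any pair of residues and a cysteine matched Igfbp1 to Igfbp5 and neither Igfbp6 nor Igfbp7. The search required the leading glycine, so a cluster of cysteines without it would not be found. The 5 stretches that matched are shown, with cysteine codons in capitals, 5′ to 3′ on the coding strand.
Igfbp1: ggcTGTggcTGCTGCccgacaTGT
Igfbp2: ggcTGCggcTGCTGCtccgtgTGC
Igfbp3: ggcTGCggcTGCTGCctgactTGC
Igfbp4: ggcTGCggtTGTTGCgccactTGC
Igfbp5: ggcTGTggcTGCTGCatgactTGC
Each holds 4 cysteine codons in 24 bases, at codons 58 to 65 of Igfbp1, 67 to 74 of Igfbp2, 68 to 75 of Igfbp3, 52 to 59 of Igfbp4 and 51 to 58 of Igfbp5. The cysteine-tryptophan-cysteine triplet near the carboxyl end was found in Igfbp1 to Igfbp6 and not in Igfbp7, whose product is known to bind the hormones weakly.

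Igfbp1 and Igfbp2 share a further stretch that no other of the 7 binding protein genes holds, an arginine-glycine-aspartate triplet, the kind of site by which proteins attach to integrins. It is shown with its 3 codons in capitals.
Igfbp1: actAGAGGGGACccc
Igfbp2: atcCGGGGAGACccc
It begins at codon 259 of Igfbp1 and codon 281 of Igfbp2.

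The family is arranged in part as neighbours that face each other. On chromosome 1 (GRCm38), Igfbp2 (ENSMUSG00000039323, 72824503 to 72852474, plus strand) ends 5457 bases before Igfbp5 (ENSMUSG00000026185, 72857932 to 72874884, minus strand). On chromosome 11, Igfbp1 (ENSMUSG00000020429, 7197782 to 7202546, plus strand) ends 3539 bases before Igfbp3 (ENSMUSG00000020427, 7206086 to 7213923, minus strand). The remaining members stand alone, with Igfbp4 (ENSMUSG00000017493) at 99041244 to 99054392 of chromosome 11, Igfbp6 (ENSMUSG00000023046) on chromosome 15 from 102144362 to 102149511, and Igfbp7 (ENSMUSG00000036256) on chromosome 5 from 77349240 to 77408041. Igf1 (ENSMUSG00000020053) lies on chromosome 10 from 87858265 to 87937042, Igf1r (ENSMUSG00000005533) on chromosome 7 from 67952827 to 68233668, and Igf2r (ENSMUSG00000023830) on chromosome 17 from 12682406 to 12769664.

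Each library held 16061435 to 21261226 estimated counts. Tubule markers were abundant in every library, with a summed level of the 8 proximal tubule genes of 16670 to 19070 CPM in knockout and 15800 to 20300 CPM in control kidneys (CPM, counts scaled by TMM-adjusted library size). Ccnb1 itself had 18, 15 and 11 counts in knockout and 11, 17 and 7 in control kidneys (log2 fold change 0.34, SE 0.46). Ccnb1 was thus not lower in the libraries labelled knockout (edgeR adjusted p = 0.9995, 95% interval -0.71 to 1.39), and knockout and control below mean the libraries so labelled. Kap, an androgen-regulated tubule gene and one of the 2 genes past the threshold, had 0 counts in every knockout and 172207 to 284320 in every control library. Along the first principal component control 2 was remote, at -49.62, with all others from -7.23 to 22.13. Control 3 stood apart in immediate early and heat shock genes, 9 genes that summed to 3388 CPM there, against 324.4 to 643 CPM in knockout kidneys and 258.9 and 459.5 CPM in the other controls.

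In these kidneys the system was dominated by binding protein transcripts, above all Igfbp7 and Igfbp4, while the growth factor's own transcript was scarce. Levels were set side by side per length, as FPKM (counts scaled by spliced transcript length and by library total) summed over the transcripts of a gene. Igfbp7 averaged 749 ± 113 FPKM (SD over 6 libraries) and made up 57.7% of the summed mean FPKM of the 7 binding proteins. Igfbp4, an inhibitor of the hormones, followed at 374 ± 58.2 FPKM and 28.8%. Both ranks held in all 6 libraries, and the 6-library ranges of Igfbp7 (556 to 898 FPKM) and Igfbp4 (267 to 424 FPKM) did not meet.

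A middle tier held Igfbp3, the main carrier of the hormones in blood, at 89.0 ± 18.7 FPKM, and Igfbp5, a binding protein that also sits in matrix, at 78.2 ± 9.11 FPKM. Their ranges overlapped, and Igfbp3 was the higher of the pair in 5 of 6 libraries. The receptors stood below them, Igf1r at 25.6 ± 5.58 and Igf2r at 24.3 ± 2.91 FPKM, with overlapping ranges and Igf1r higher in 4 of 6 libraries. The low tier held Igfbp1 at 3.66 ± 2.57, Igfbp2 at 2.84 ± 1.17, Igf1 at 1.71 ± 0.648 and Igfbp6 at 0.817 ± 0.742 FPKM, and each neighbour in that order overlapped the next. Igf2, the second ligand gene, was no member and was looked up after the other values were seen: it had 33, 16 and 29 counts in knockout and 17, 33 and 22 in control kidneys.

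**Figure D1:**
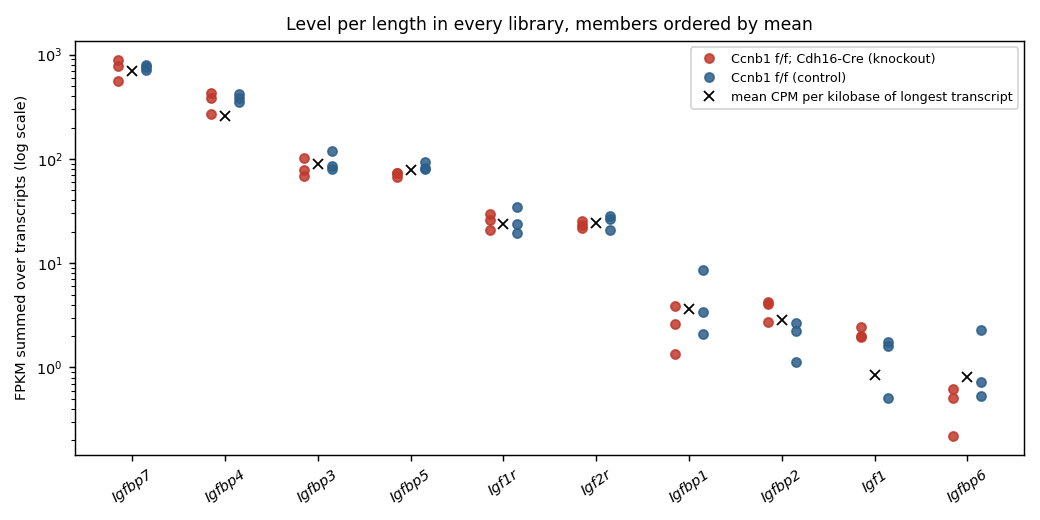
FPKM summed over transcripts (y axis, log scale) of the 10 genes in each of 3 knockout (left of each pair) and 3 control libraries, ordered by the mean over 6 libraries; crosses give mean CPM per kilobase of the longest transcript. Igfbp7 and Igfbp4 run from 267 to 898 FPKM, Igfbp3 and Igfbp5 from 66.8 to 119.8 FPKM, the receptors from 19.6 to 34.5 FPKM and the rest from 0.22 to 8.57 FPKM.

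Where a gene's transcripts differ in length, the sum depends on how counts were divided among them. For 8 members the transcript with the most counts took at least 97.7% of the gene's counts in every library. In Igfbp4 a transcript of 785 spliced bases took 10.9% to 12.2% of the counts. Per kilobase of the longest transcript, Igfbp4 averaged 258 CPM per kilobase in place of 374 FPKM, and remained below Igfbp7 at 697. Igf1, the other exception, is described below. The order within 2 close pairs also depended on the length used. Per kilobase of the longest transcript Igf1r averaged 23.6 CPM and Igf2r 24.2 CPM. Per kilobase of all exons Igfbp3 averaged 68.6 CPM and Igfbp5 78.1 CPM.

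Between knockout and control kidneys, no member differed past the threshold. By edgeR's quasi-likelihood test with Benjamini-Hochberg adjustment over 15017 genes, 0 of 10 members had an adjusted p under 0.05, where 0.0133% of all tested genes (2 genes) did, with 0.00666% higher and 0.00666% lower in knockout. DESeq2, which called 0.0933% of all genes, also called 0 of 10. Limma on log2(FPKM + 1) called 0 members too, but Igfbp6 was tested there only without the filter. At an unadjusted p under 0.05 there were 2 members, Igfbp2 and Igfbp5, against 3.23% of all genes. Of the 10 fold changes 7 were below 0, with a median of -0.10 on the log2 scale, beside 51% of all genes below 0 and a median of -0.01. All 10 members had the same adjusted p of 0.9995, so it is not repeated below. In bulk kidney, fewer cells of a type and less RNA per cell cannot be told apart.

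**Figure D2:**
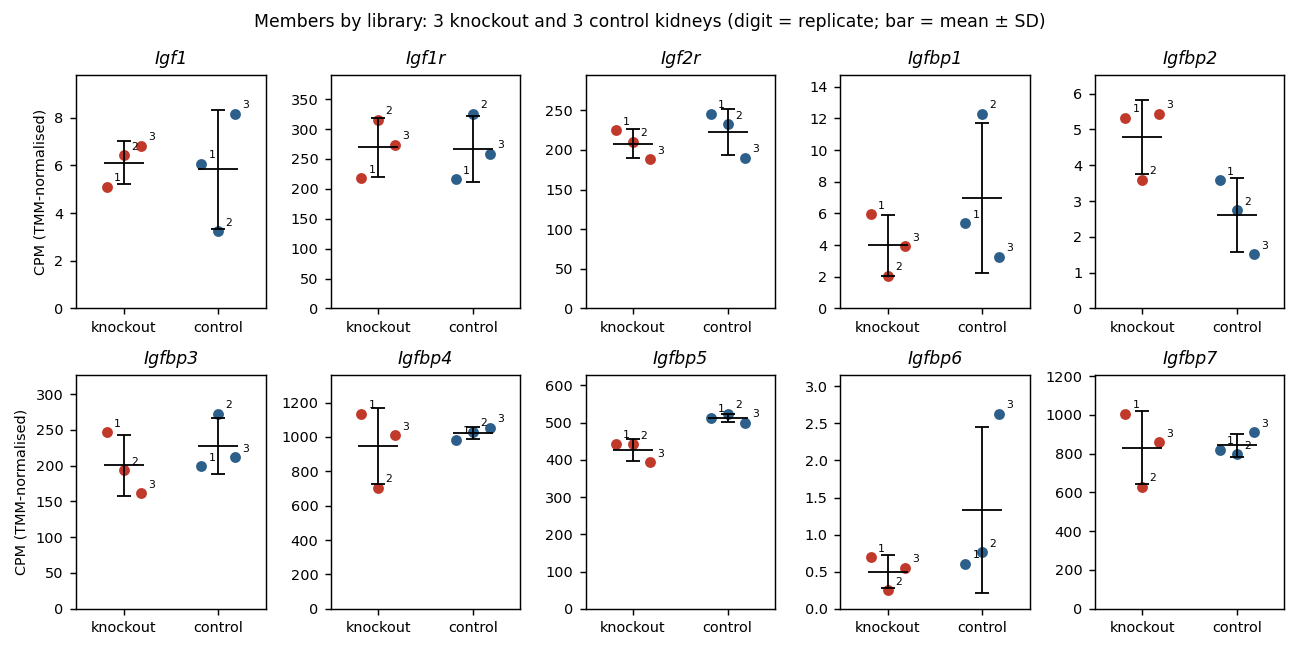
TMM-normalised CPM (y axes start at 0) of each gene in 3 knockout (left) and 3 control libraries (right); digits are replicate numbers and bars give mean ± SD, n = 3 each. Igfbp2 and Igfbp5 are the 2 genes whose groups do not overlap, and single libraries stand out for Igfbp1 (control 2) and Igfbp6 (control 3).

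Igf1, the ligand, was read at 5.10, 6.43 and 6.83 CPM in knockout 1, 2 and 3, against 6.07, 3.24 and 8.18 CPM in control 1, 2 and 3. The highest and the lowest library were both controls. The group means were 6.12 ± 0.905 and 5.83 ± 2.48 CPM (SD, n = 3 each), and the log2 fold change was 0.08 (SE 0.32, 95% interval -0.67 to 0.82). The gene's counts were 88, 102 and 148 in knockout and 100, 64 and 140 in control kidneys and the interval spans 0.627-fold to 1.77-fold.

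On the FPKM scale the same Igf1 reads looked different. Summed FPKM was 1.96, 1.99 and 2.42 in knockout and 1.77, 0.51 and 1.62 in control kidneys, groups that do not overlap. The share of all genes without overlap was not computed on this scale. The table lists 8 Igf1 transcripts, of which 3 are shorter than 1000 bases. None of these 3 had more than 8.865 estimated counts in a library. The short ones took 11.1% to 15.9% of the gene's counts in knockout and 0% to 9.02% in control kidneys, and 53.8% to 62.2% against 0% to 47.5% of its FPKM. The longest transcript alone stood at 0.57, 0.75 and 0.82 FPKM in knockout and 0.69, 0.48 and 1.06 FPKM in control kidneys, which overlap. With limma on log2(FPKM + 0.1) the fold change of Igf1 was 0.82, and it did not pass the threshold there.

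**Figure D3:**
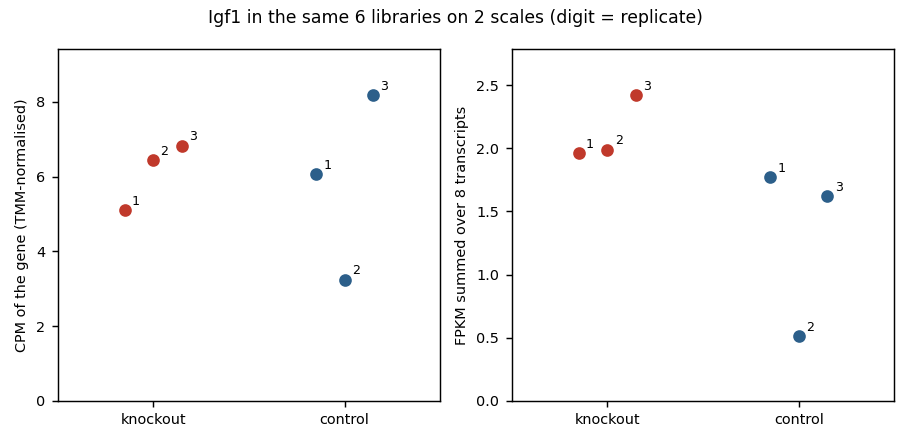
Igf1 in the same 3 knockout (left) and 3 control libraries (right), as TMM-normalised CPM of the whole gene and as FPKM summed over its 8 transcripts; both axes start at 0. The groups overlap in CPM and do not overlap in summed FPKM, where knockout kidneys run from 1.96 to 2.42 and controls from 0.51 to 1.77.

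The receptors were at like levels in both groups. Igf1r, the signalling receptor, had 218, 316 and 274 CPM in knockout and 217, 326 and 259 CPM in control kidneys. Its log2 fold change was 0.01 (SE 0.19, 95% interval -0.42 to 0.44), which spans 0.749-fold to 1.36-fold. Igf2r, the clearance and sorting receptor, had 225, 210.3 and 188 CPM in knockout and 246, 233 and 190.0 CPM in control kidneys. Every library of either group lay inside a 1.31-fold range, the narrowest of the 10 genes, and the log2 fold change was -0.10 (SE 0.13, 95% interval -0.40 to 0.20).

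Igfbp2, a binding protein of fetal and growing tissues, was the member with the largest fold change above 0. It had 92, 57 and 118 counts in knockout and 59, 54 and 26 in control kidneys, or 5.33, 3.60 and 5.44 CPM against 3.58, 2.74 and 1.52 CPM. The groups did not overlap, by a margin of 3.60 CPM in knockout 2 to 3.58 CPM in control 1. The means were 4.79 ± 1.04 and 2.61 ± 1.04 CPM (SD, n = 3 each), a log2 fold change of 0.88 (SE 0.34, 95% interval 0.10 to 1.66; edgeR unadjusted p = 0.0322). It ranked 301st of 15017 genes by unadjusted p. By exact two-sided permutation p was 0.1, which is the lower bound for 3 against 3 libraries.

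Igfbp5, its neighbour on chromosome 1, lay on the other side. It had 443, 442 and 393 CPM in knockout and 513, 524 and 500.2 CPM in control kidneys. All 3 knockout libraries were below all 3 controls, and the controls lay closer together than the knockouts. The means were 426 ± 28.7 and 512 ± 11.7 CPM (SD, n = 3 each), a log2 fold change of -0.27 (SE 0.10, 95% interval -0.50 to -0.03; edgeR unadjusted p = 0.0339, exact permutation p = 0.1). Igfbp2 and Igfbp5 were the 2 members without overlap between groups, beside 8.18% of all tested genes (4.1% with knockout higher, as Igfbp2, and 4.08% with knockout lower, as Igfbp5). Reads of Igfbp5 were many (7011 to 10334 counts per library), and the part of counting error in the spread between libraries was not tested.

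Of the stromal markers 0 passed the threshold, and most had fold changes below 0, as Igfbp5 did. Of 9 tested fibroblast and pericyte markers 8 were below 0 in knockout over control (median log2 fold change -0.38), and the list's 10 genes summed to 164 to 218 CPM in knockout and 198 to 239 CPM in control kidneys. All 5 smooth muscle markers were below 0 (median -0.54), with sums of 37.9 to 64.4 CPM against 65.5 to 89.1 CPM. Over all tested genes 51% were below 0. At an unadjusted p under 0.05 stood 4 of the 9 and 3 of the 5, beside 3.23% of all genes, and the pericyte gene Rgs5 lay the other way at 0.31 (SE 0.21). Among them and their list mates were Col1a2 at -0.24 (SE 0.13), Col3a1 at -0.39 (SE 0.26), Acta2 at -0.65 (SE 0.23) and Myh11 at -0.54 (SE 0.20), none past the threshold. A majority below 0 was not particular to these lists. Below 0 were 7 of 9 endothelial markers (median -0.09), 8 of 10 distal tubule and collecting duct markers (median -0.07) and 4 of 4 tested adipose markers (median -0.36). It was 3 of 6 for podocyte markers (median -0.01), 5 of 8 for proximal tubule, 1 of 6 for thick ascending limb and 0 of 7 for macrophage markers. The part of cell composition in the Igfbp5 values was not tested.

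Igfbp1, the binding protein that liver makes in fasting and that insulin switches off, varied between libraries more than between groups. It had 103, 33 and 85 counts in knockout and 89, 243 and 56 in control kidneys, or 5.97, 2.08 and 3.92 CPM against 5.40, 12.3 and 3.27 CPM. Control 2 was the highest, 5.92-fold above knockout 2, and the groups overlapped. The log2 fold change was -0.81 (SE 0.52, 95% interval -2.02 to 0.40), and -0.12 without control 2. Its SD across libraries exceeded that of 96.7% of tested genes within 2-fold of its level.

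The upstream sequence of Igfbp1 is known for the element through which insulin and Foxo factors act on it, and it is shown because no other member's window holds its core letters. The 250 bases before the RefSeq start (GRCm38.p6, chr11:7197537-7197786, plus strand) are printed with the core CAAAACA in capitals.
Igfbp1: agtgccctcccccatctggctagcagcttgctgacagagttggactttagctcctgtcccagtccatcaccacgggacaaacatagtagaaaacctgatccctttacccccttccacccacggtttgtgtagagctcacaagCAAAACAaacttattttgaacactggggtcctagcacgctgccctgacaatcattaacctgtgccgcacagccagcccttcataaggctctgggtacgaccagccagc
The core begins 108 bases before the start. CAAAACA, or TGTTTTG on the other strand, is in 5.56% of 32851 RefSeq upstream windows of 250 bases, and of the 11 windows of the 10 members in that of Igfbp1 alone. The Foxo consensus letters GTAAACA or TGTTTAC, in 3.17% of windows, were in no member's window. A match of letters is a description of the window and not a measured site.

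Genes of the fasting and Foxo response gave no call. Of 13 listed and tested, 0 passed, 6 were above 0 and 7 below, with a median log2 fold change of -0.01. Pck1 and G6pc, the enzymes of glucose output, had 2480 to 3111 and 316 to 778 CPM in knockout kidneys, and 3099 and 497 CPM in control 2, where Igfbp1 was highest. Their log2 fold changes were 0.07 (SE 0.15) and 0.02 (SE 0.37). Klf15 was at -0.21 (SE 0.23), Cpt1a, the gatekeeper of mitochondrial fatty acid oxidation, at 0.19 (SE 0.12), and Irs2, also a Foxo target, at -1.20 (SE 0.82). Among liver markers, Ahsg was at 0 in all 6 libraries and Apoa1 had 38 counts in all. Alb had 6.37 to 8.71 CPM in knockout kidneys, 12.7 CPM in control 2 and 4.31 and 6.25 CPM in the other controls. Ttr had 116 to 321 CPM in knockout kidneys, 0.304 CPM in control 2 and 94.4 and 159 CPM in the other controls, and it set the list's low sum in control 2 (73.2 CPM). The part of liver transcripts in the Igfbp1 values was not tested.

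Igfbp3, the partner of Igfbp1 on chromosome 11, was also highest in control 2. It had 247, 194 and 162 CPM in knockout and 199, 273 and 212 CPM in control kidneys, and the groups overlapped. The log2 fold change was -0.18 (SE 0.18, 95% interval -0.60 to 0.24), and -0.036 without control 2. In kidney its transcript is known from endothelium. The endothelial markers summed to 609, 464 and 466 CPM in knockout and 575, 557 and 508 CPM in control kidneys.

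The 2 most abundant members, Igfbp4 and Igfbp7, shared their extremes. Igfbp4 had 1135, 705 and 1011 CPM in knockout and 984, 1031 and 1054 CPM in control kidneys. Igfbp7 had 1006, 629 and 858 CPM in knockout and 821, 797 and 909 CPM in control kidneys. Knockout 1 was the highest and knockout 2 the lowest library for both genes, and the knockout group spread around the controls. The endothelial sum was also highest in knockout 1 (609 CPM), but nearly equal in knockout 2 and knockout 3 (464 and 466 CPM). The sums of the fasting and Foxo genes and of the partners and proteases below were highest in knockout 1 and lowest in knockout 2. Single abundant genes weighed heavily in them: in knockout 1, Pck1 gave 3111 of 5045 CPM and Klk1 1345 of 2883 CPM. Other genes of these lists did not share the order. Cpt1a had 573 CPM in knockout 1 and 625 CPM in knockout 2, and Htra1 141 and 179 CPM. The part of any of these lists in the Igfbp4 and Igfbp7 values was not tested.

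Their fold changes were small. Igfbp4 stood at -0.11 (SE 0.18, 95% interval -0.51 to 0.30) and Igfbp7 at -0.02 (SE 0.17, 95% interval -0.42 to 0.38) on the log2 scale. Without knockout 2 both turned, to 0.063 and 0.14, and Igfbp7 stood at 0.04 without control 3. For the transcript of the urinary stress marker IGFBP7, the interval leaves room for 0.746-fold to 1.30-fold. As shares of the summed binding protein FPKM, Igfbp7 held 59.6%, 56.8% and 59.7% in knockout and 57.6%, 54.0% and 58.5% in control kidneys, and Igfbp4 28.2%, 27.3% and 29.4% against 28.7%, 30.1% and 28.8%.

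**Figure D4:**
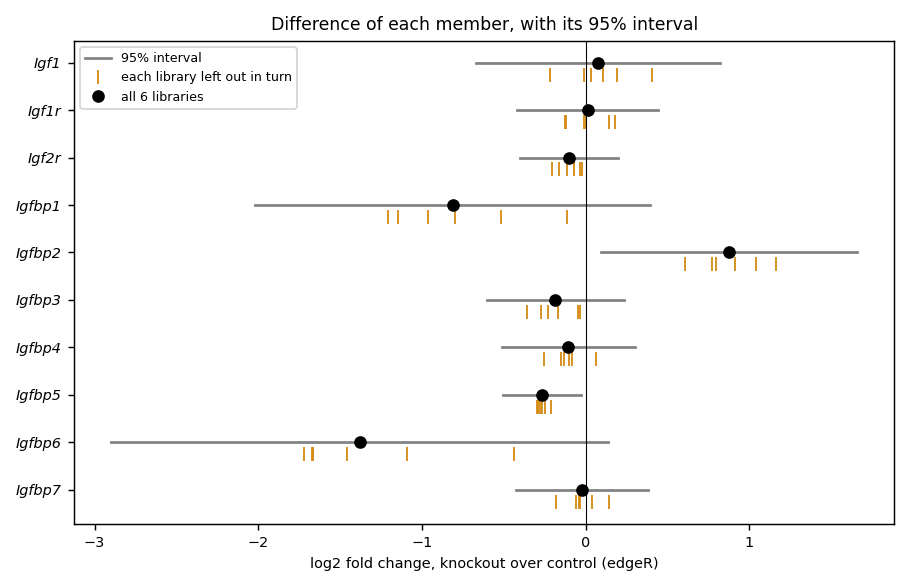
Log2 fold change of each gene, knockout over control (x axis; black points, edgeR on 6 libraries), with 95% intervals (grey) and the values with each library left out in turn (orange ticks). The intervals of Igfbp2 (0.10 to 1.66) and Igfbp5 (-0.50 to -0.03) do not reach 0, and the ticks of Igf1, Igf1r, Igfbp4 and Igfbp7 fall on both sides of it.

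Igfbp6, the binding protein that prefers the second ligand, had the largest fold change of the 10, and it rested on 1 library. It had 12, 4 and 12 counts in knockout and 10, 15 and 45 in control kidneys, or 0.695, 0.252 and 0.553 CPM against 0.607, 0.760 and 2.63 CPM. Control 3 held 45 of the 98 counts in all; control 1 lay inside the knockout range and control 2 just above it. The log2 fold change was -1.38 (SE 0.66, 95% interval -2.90 to 0.14; edgeR unadjusted p = 0.0691), and -0.44 without control 3.

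Of the 10 members Igfbp6 had the largest SD across libraries, so the genes nearest to it in pattern were looked up among 11909 genes, by the root mean square difference of centred log2 CPM over 6 libraries. Among the nearest were Junb, an immediate early transcription factor, at 0.355, and Nab2, a corepressor of Egr1, at 0.378. Junb had 57.7, 36.0 and 35.1 CPM in knockout and 43.9, 39.6 and 162 CPM in control kidneys. Nab2 had 19.6, 16.8 and 15.9 CPM in knockout and 17.4, 22.8 and 55.1 CPM in control kidneys. Igfbp6, Junb and Nab2 were all highest in control 3. As Junb and Nab2 were picked for likeness to Igfbp6, this shared peak follows from the picking and is no separate evidence. In control 3 Egr1 had 439 CPM and Hspa1a 792 CPM. The part of these genes in the Igfbp6 values was not tested.

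**Figure D5:**
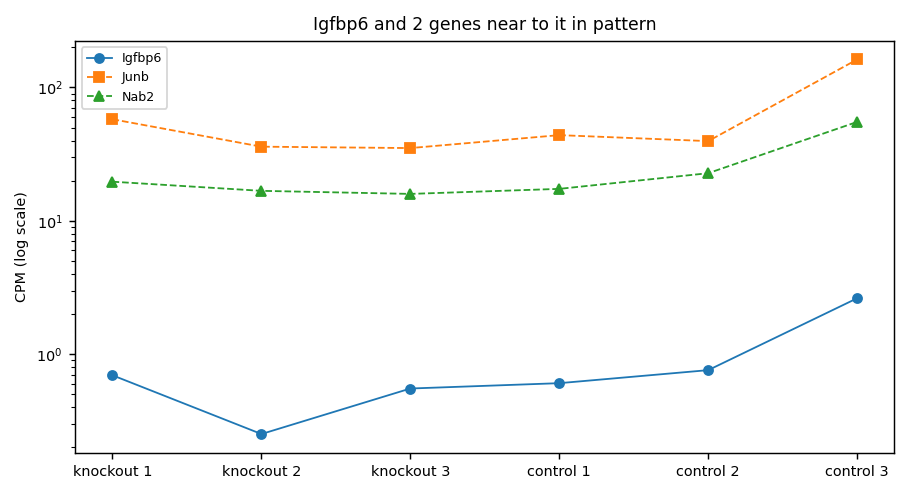
CPM (y axis, log scale) of Igfbp6 and of 2 genes near to it in pattern, Junb and Nab2, in 3 knockout libraries (left) and 3 control libraries (right); lines join the libraries only to guide the eye. All 3 genes are highest in control 3, where Igfbp6 stands at 2.63 CPM. Junb and Nab2 were picked for likeness to Igfbp6, so the shared peak follows from the picking.

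The rest of the pathway gave no call either. The 7 lists held 88 genes, of which 83 were tested: edgeR and DESeq2 called 0, 35 were above 0 and 48 below, and the median log2 fold change was -0.01. At an unadjusted p under 0.05 there were 3 (3.61%, beside 3.23% of all genes), namely Pik3r1, Adam12 and Pappa2. Groups did not overlap for 7.23%, beside 8.18% of all genes. Knockout was the higher group for Pappa2, Ghr and Stat5a and the lower for Grb10, Gab1 and Adam12. The lists were chosen with earlier results of these data known.

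Among receptor relatives and adaptors, 0 of 11 tested passed and 8 were below 0 (median -0.10). The insulin receptor gene Insr was at -0.10 (SE 0.16), the inhibitory adaptor Grb10 at -0.18 (SE 0.09), and Gigyf1 and Gigyf2, which bind Grb10, at -0.03 (SE 0.11) and -0.09 (SE 0.11). Irs2, the docking protein of both receptors, had 74.8, 52.0 and 30.6 CPM in knockout and 37.0, 30.8 and 294 CPM in control kidneys, with control 3 far above the rest (log2 fold change -1.20, SE 0.82). In the kinase relay 0 of 20 passed and 14 were below 0 (median -0.03). Pik3r1, the regulatory subunit of the lipid kinase, was at -0.31 (SE 0.13), Akt2 at -0.03 (SE 0.12), Mtor at 0.15 (SE 0.14) and Foxo3 at -0.14 (SE 0.27).

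Among partners and proteases of the binding proteins, 0 of 15 passed and 9 were below 0 (median -0.03). Adam12, a protease that cleaves IGFBP3 and IGFBP5, had 3.25, 2.08 and 2.21 CPM in knockout and 4.86, 4.05 and 5.32 CPM in control kidneys. Its groups did not overlap, as for 8.18% of all tested genes, and its log2 fold change was -0.91 (SE 0.26, edgeR unadjusted p = 0.008). Pappa2, another protease of binding proteins, went the other way at 1.04 (SE 0.39), at a mean of 0.806 CPM. The most abundant of the list, Klk1, Ctsd, Plau and Htra1, stood at -0.03 (SE 0.18), 0.05 (SE 0.15), -0.09 (SE 0.16) and 0.28 (SE 0.15).

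The growth hormone axis, which drives Igf1 in liver, had 0 of 13 past the threshold, 7 above 0 and a median of 0.02. The receptor gene Ghr was abundant, with 907, 962 and 852 CPM in knockout and 823, 807 and 816 CPM in control kidneys, groups that did not overlap, at a log2 fold change of 0.15 (SE 0.11). Stat5a, which carries its signal, did not overlap either, at 0.30 (SE 0.14), while Stat5b was at 0.12 (SE 0.12). Over all tested genes 8.18% had groups without overlap. Cish, a feedback gene of Stat5, had 321 CPM in control 3 against 19.3 to 91.5 CPM in the other 5 libraries.

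For the sorting role of Igf2r, 0 of 10 genes of the mannose 6-phosphate pathway passed, with 6 above 0 and a median of 0.02. M6pr, the smaller sorting receptor, had 254, 285 and 245 CPM in knockout and 274, 211 and 248 CPM in control kidneys, a log2 fold change of 0.10 (SE 0.13). Gga2 and Gga3, adaptors that load the receptors into carriers, were at -0.06 (SE 0.16) and -0.19 (SE 0.14), and Vps35 and Vps29, which recycle them, at 0.03 (SE 0.10) and 0.05 (SE 0.12). Of the RNA-binding proteins named for the family, Igf2bp1 and Igf2bp2 were tested and stood at -0.25 (SE 0.33) and 0.13 (SE 0.30), and Igf2bp3 had 33 counts in all.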

How the data were processed

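The authors deposited, per the file headers, 1 table of estimated counts without normalisation and of FPKM values for 128603 transcripts. Per the submitters' processing notes, HISAT2 2.0.1, Cuffdiff 2.2.1, cutadapt 1.9.1, bcl2fastq and FastQC were among the tools and GRCm38 was the build. No source used here tells which program counted or whether strand was used, so reads of overlapping genes cannot be told apart. The deposited FPKM values match the spliced length in GENCODE M21 to within 1% for 94.4% of 10640 transcripts.

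Estimated counts were summed per symbol and rounded. The main test was edgeR 4.0.16 (quasi-likelihood, TMM, minimum count 10, group only, two-sided) in R 4.3.3, with Benjamini-Hochberg adjustment over 15017 genes and a threshold of 0.05; SE is the fold change over the square root of F. Alternatives were DESeq2 1.42.0, limma 3.58.1 on log2(FPKM + 1), other filters and scalings, and each library left out in turn. The depth was 16061435 to 21261226 counts per library. A count of 0 leaves room for 3 counts, or 0.141 to 0.187 CPM, by counting error only. The scripts were tested on simulated data. All 10 members are named, with the called or otherwise the 4 most abundant genes of each list and the 1 of lowest p, plus genes nearest the most variable member; 3 genes that this rule names are not reported here. Beyond this rule, Kap, Igf2, Pappa2, Gab1, Ahsg, Apoa1 and Igf2bp3 were named after their values were seen. Members and lists were chosen with earlier results of these data known. Of the marker lists, distal tubule and collecting duct genes had a median log2 fold change of -0.07, thick ascending limb 0.09, proximal tubule -0.06, macrophage 0.15, liver 0.13, adipose -0.36 and immediate early and heat shock genes -1.17, with 0 called; adrenal markers had 1 tested gene, Star, at -0.02 (SE 0.28).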

Additional observations from a re-analysis of the deposited data

How the results depend on the processing

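The number of members called was 0 in each of the 15 alternative fits, and so was the number of pathway and marker genes. Over all genes the count was 2 in the fit reported, 14 with DESeq2, 5 without a filter, 1 with each limma setting, and 1 to 6 with each library left out in turn; the cause was not tested. The replicate numbers were not shown to pair the libraries. Deviations from the group means of same-numbered libraries correlated at 0.09, -0.09 and 0.12 across genes. Knockout 1 and knockout 3 correlated best with the control of the same number, and knockout 2 best with control 3 (0.07). With the replicate block the count was 2, as without it. Fold changes of Igf2r, Igfbp1, Igfbp2, Igfbp3, Igfbp5 and Igfbp6 kept their sign in each alternative that gave a value. Igf1r stood at -0.0006718 with limma on log2(FPKM + 1), filtered or not. With each library left out in turn the log2 fold change ran from -0.22 to 0.40 for Igf1, -0.12 to 0.18 for Igf1r, -0.25 to 0.063 for Igfbp4, -0.18 to 0.14 for Igfbp7, -1.21 to -0.12 for Igfbp1, 0.61 to 1.16 for Igfbp2, -0.30 to -0.21 for Igfbp5 and -1.72 to -0.44 for Igfbp6. Igfbp6 could not be tested with a minimum count of 50 or with FPKM of at least 1 in 3 libraries. The members with the fewest counts were Igf1, Igfbp1, Igfbp2 and Igfbp6, with 4 to 243 per library, and the part of depth in their spread was not tested.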
